A study of Homo sapiens with 6 samples.

Results

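DVL1, GNB1, PRKCZ, NADK, ACAP3, SCNN1D and PANK4 are 7 genes for signalling proteins, a channel subunit and metabolic enzymes that lie near the end of the short arm of chromosome 1. They were taken by name from the 220 genes that could be read in all 6 libraries, out of 67140 genes in the complete gene list. RNA-Seq was performed on U2OS, an established osteosarcoma cell line with no engineered change (genotype WT), in 3 groups with 2 libraries each. Cells were left untreated, received adriamycin (doxorubicin) at 1.5 μg/ml for 4 h, or received etoposide at 100 μM for 4 h. Both drugs are topoisomerase II poisons, and adriamycin also intercalates into DNA. The study asked how adriamycin changed gene expression while chromatin condensed and included etoposide as a comparison drug.

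Raw read counts summed over the 220 shared genes ranged from 59357 to 92794 per library, and the complete lists of the etoposide libraries summed to 21450766 and 14244235. The members took 12.6% to 15.5% of the shared counts, and AGRN, a neighbouring gene for a basement membrane proteoglycan, took 21.1% to 29.0% with its highest shares after adriamycin. All 7 members passed the filter on low counts, which kept 94 of the 220 genes. Legends of the study call the replicates technical, including a legend on RNA levels. Separately grown cells are described in legends on chromatin contacts (Hi-C), while the sample labels say neither. Each p-value here therefore sets a difference against the spread between these libraries, which may be technical. The labels name the tissue Bone and the cell type Epithelial. In the etoposide libraries, 7 of 8 mesenchymal and bone markers had at least 10 counts in both libraries, led by COL1A1 at 1368 TPM (counts per length of exon, scaled to the same total in each library), while COL1A2 had 5 and 2 counts. The others of these markers with at least 10 counts ran from RUNX2 at 2.03 TPM and ALPL at 11.2 TPM up to SPARC at 849 TPM. Of 8 epithelial markers, 5 reached at least 10 counts in both libraries. They were KRT8 at 451 TPM, KRT18 at 252, CLDN4 at 19.8, EPCAM at 18.2 and CDH1 (E-cadherin) at 0.80 TPM. KRT19, ESRP1 and GRHL2 were below 10 counts.

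DVL1 encodes a Dishevelled protein, which carries Wnt signals from Frizzled receptors at the membrane to the machinery that controls beta-catenin. GNB1 encodes a beta subunit of heterotrimeric G proteins, which pairs with a gamma subunit and relays signals from seven-transmembrane receptors. PRKCZ encodes an atypical protein kinase C, a kinase that works with PAR proteins in cell polarity. ACAP3 encodes a GTPase-activating protein for ARF6, a small GTPase of membrane traffic. SCNN1D encodes the delta subunit of the epithelial sodium channel family. NADK makes NADP from NAD in the cytosol, and PANK4 belongs to the pantothenate kinase family, whose other members start coenzyme A synthesis, but it is known as a phosphatase rather than as an active kinase.

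The members fell into different patterns across the groups. With etoposide, DVL1, GNB1 and PRKCZ fell relative to control (edgeR quasi-likelihood test, Benjamini-Hochberg adjusted p under 0.01), and DVL1 showed the strongest decrease. With adriamycin, GNB1, ACAP3, NADK and SCNN1D rose and PANK4 fell, while DVL1 and PRKCZ did not pass the test. GNB1 was the member that passed the test in opposite directions with the 2 drugs. Of the 94 genes tested, 2 (2.13%, GNB1 included) were lower with etoposide and higher with adriamycin, and 1 (1.06%) went the other way in both.

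Against all genes tested, 3 of 7 members were lower with etoposide than control, where 17% of the tested genes were (22.3% in either direction), and 0 were higher, where 5.32% were. The DESeq2 Wald test called 0 members higher with etoposide at the adjusted threshold, where it called 3.33% of its tested genes higher. With adriamycin, 4 of 7 members were higher than control and 1 was lower, where 19.1% of the tested genes were called in each direction (38.3% in all). Against etoposide, adriamycin gave 4 higher and 1 lower members, where 21.3% and 24.5% of the tested genes were (45.7% in all). The median log2 fold change of the members and of all 94 tested genes was -0.041 and 0.027 for etoposide against control, 0.33 and -0.072 for adriamycin against control, and 0.43 and -0.069 for adriamycin against etoposide. All comparisons share libraries, so they are not independent of each other. The members were also chosen with earlier results of these data known, so these shares and medians describe them and test no excess. The study's stricter rule also asks for a change over 1 on the log2 scale. No member passed it in the edgeR fit given here, where 2.13% of the tested genes passed it upwards and 3.19% downwards with etoposide, 1.06% and 7.45% with adriamycin, and 2.13% and 10.6% between the drugs. Without the fold limit, 4, 6 and 5 members had an unadjusted p under 0.05 in the same order of comparisons, where 42.6%, 54.3% and 56.4% of the tested genes did. The DESeq2 Wald test passed 0, 1 and 1 members by the stricter rule, where it passed 5.56%, 8.51% and 11.7% of its tested genes. Members near the limit crossed it under some of the 17 alternative settings for each value. SCNN1D with adriamycin against control did so under 5 settings (1.03 to 1.20), GNB1 between the drugs under 6 (1.001 to 1.06), and PANK4 between the drugs under 3 (-1.15 to -1.01).

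**Figure D1:**
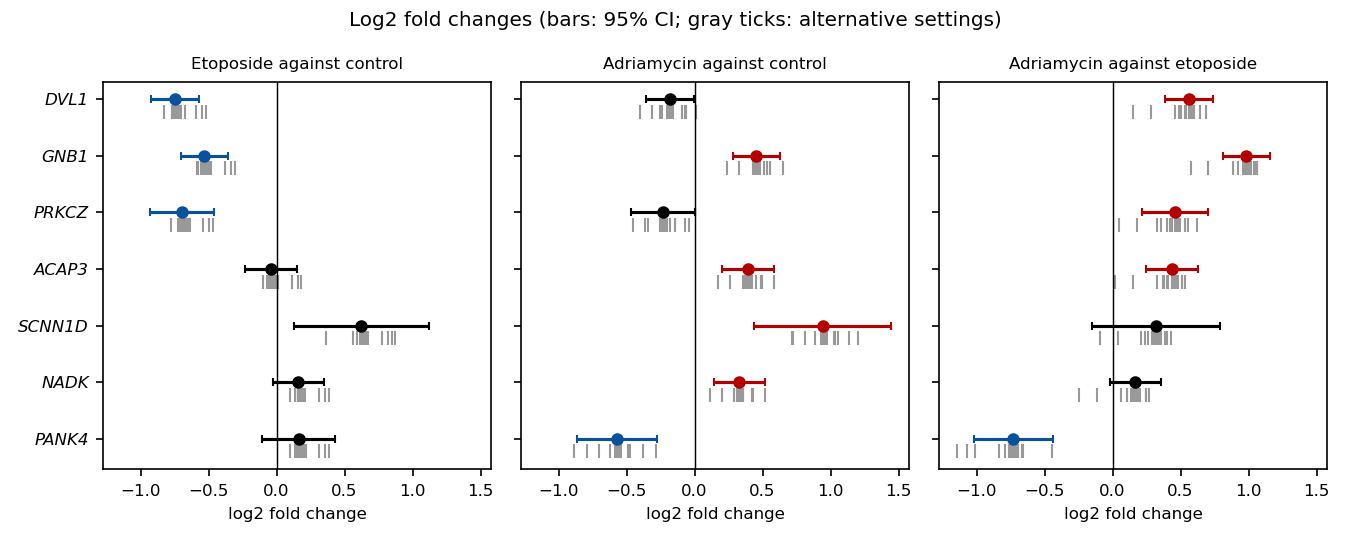
Log2 fold changes of the 7 members in the 3 comparisons, with bars for the 95% confidence interval of the edgeR fit and small gray ticks for the values under other settings. Red marks members that rose, blue those that fell and black those that did not pass the test. DVL1, GNB1 and PRKCZ lie left of 0 with etoposide against control, and GNB1 lies right of 0 in both adriamycin comparisons.

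Promoter sequences are shown for the 3 members that fell with etoposide and for the member that fell with adriamycin, so that the genes with decreases can be set side by side. They come from RefSeq on GRCh38.p14, run 5′ to 3′ on the gene's strand and cover 250 bases before to 50 after the listed start. RefSeq gave windows for 6 of the 7 members, not SCNN1D. Capitals mark the cAMP response element TGACGTCA (CRE), the GC box GGGCGG, the CCAAT box and the core of the NRF1 site, GCATGCGC, each on either strand.
DVL1, chr1:1349369-1349668, minus strand: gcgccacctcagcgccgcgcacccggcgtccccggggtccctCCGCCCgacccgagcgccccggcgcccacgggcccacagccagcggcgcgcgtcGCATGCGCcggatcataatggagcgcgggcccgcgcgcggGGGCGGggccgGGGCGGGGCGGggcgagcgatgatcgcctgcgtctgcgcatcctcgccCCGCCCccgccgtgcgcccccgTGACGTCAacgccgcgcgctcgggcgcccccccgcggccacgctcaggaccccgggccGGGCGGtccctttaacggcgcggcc
PRKCZ, chr1:2050161-2050460, plus strand: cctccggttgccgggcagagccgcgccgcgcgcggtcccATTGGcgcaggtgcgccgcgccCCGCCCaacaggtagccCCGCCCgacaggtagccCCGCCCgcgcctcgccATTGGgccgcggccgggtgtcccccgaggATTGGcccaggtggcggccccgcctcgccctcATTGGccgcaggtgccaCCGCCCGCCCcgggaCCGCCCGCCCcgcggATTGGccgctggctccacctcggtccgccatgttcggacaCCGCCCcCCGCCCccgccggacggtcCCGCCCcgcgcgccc
PRKCZ, chr1:2073414-2073713, plus strand: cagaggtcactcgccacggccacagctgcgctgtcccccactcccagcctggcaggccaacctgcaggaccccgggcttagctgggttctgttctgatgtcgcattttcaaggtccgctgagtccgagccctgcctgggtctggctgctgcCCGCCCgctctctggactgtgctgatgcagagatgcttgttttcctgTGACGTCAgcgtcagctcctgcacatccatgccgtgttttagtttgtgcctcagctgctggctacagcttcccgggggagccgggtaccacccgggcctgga
GNB1, chr1:1891038-1891337, minus strand: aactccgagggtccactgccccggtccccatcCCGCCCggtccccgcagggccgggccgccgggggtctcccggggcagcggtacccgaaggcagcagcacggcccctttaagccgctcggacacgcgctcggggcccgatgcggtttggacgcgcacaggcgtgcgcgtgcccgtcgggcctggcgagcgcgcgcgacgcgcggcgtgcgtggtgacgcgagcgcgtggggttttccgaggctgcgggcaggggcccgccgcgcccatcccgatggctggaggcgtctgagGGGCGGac
PANK4, chr1:2526547-2526846, minus strand: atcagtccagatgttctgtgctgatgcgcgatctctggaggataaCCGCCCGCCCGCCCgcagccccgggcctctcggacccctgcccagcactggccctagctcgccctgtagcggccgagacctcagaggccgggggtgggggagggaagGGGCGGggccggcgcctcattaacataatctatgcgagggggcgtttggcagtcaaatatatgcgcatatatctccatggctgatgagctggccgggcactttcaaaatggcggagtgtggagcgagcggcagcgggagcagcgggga
The DVL1 window was among the richest in G and C, at 82.7% of its bases, above 99.1% of all promoter windows, whose median was 58.7%. Other member windows were also rich, at 81.0% for PRKCZ at its annotated start, 79.7% for ACAP3 and 77.3% for GNB1. The ACAP3 window held 8 GC boxes. The remaining member windows ranged from 48.0% to 74.7%. The DVL1 window held 1 CRE starting at position -33 from the start of the gene, 6 GC boxes and 1 NRF1 core at position -154. For PRKCZ 4 windows are listed. The window at the annotated start of the gene held 10 GC boxes, 5 CCAAT boxes and no CRE, and the window at chr1:2073414-2073713, inside the gene, held 1 CRE at position -52 and 1 GC box. The other 2 PRKCZ windows held none of the marked motifs. The windows of GNB1 and PANK4 held 2 and 4 GC boxes and no CRE. Among all 35116 windows, 1.85% held the CRE, 45.0% the GC box, 34.6% the CCAAT box and 3.05% the NRF1 core. Of the 94 tested genes, 51 had a window and 3 of these had a CRE in one, namely DVL1, PRKCZ and the noncoding gene LINC01409. LINC01409 had a log2 fold change of 0.94 with etoposide (SE 0.37, edgeR adjusted p = 0.0366) and fell with adriamycin (edgeR adjusted p = 0.00181). Its raw counts were low, at 34 and 23 in control, 79 and 48 with etoposide, and 8 and 3 with adriamycin. The motif matches describe letters, the counts do not tell which start was used, and the comparison of these genes was made after their values were seen. A link between a motif and a change in level was not tested.

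DVL1 (ENSG00000107404, chr1:1335276-1349418 of GRCh38, minus strand) was the member with the largest decrease with etoposide. Its raw counts were 4191 and 2686 in the control libraries, 2862 and 1830 with etoposide, and 2841 and 1887 with adriamycin. Scaled to a common library size, these were 3396 and 3081 normalized counts in control (3238 ± 222, SD, n = 2), 1937 and 1925 with etoposide (1931 ± 8.35) and 3073 and 2636 with adriamycin (2854 ± 309). The etoposide libraries lay far below the other 4, and the adriamycin libraries lay below both control libraries by less than the gap between the drugs. In bulk RNA, a lower level per cell and fewer cells that express the gene cannot be told apart.

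DVL1 fell by 0.75 on the log2 scale with etoposide (SE 0.089, edgeR adjusted p = 1.86e-12), which is a decrease to 0.596 of the control level. Its difference between adriamycin and control was -0.18 (95% interval -0.36 to -0.0070, edgeR adjusted p = 0.0798), which did not pass the test. Between the drugs it was 0.56 higher with adriamycin (SE 0.089, edgeR adjusted p = 3.12e-08). Without etoposide replicate 1, the decrease with etoposide was -0.76 with an edgeR adjusted p of 0.0265, and the difference between the drugs had an adjusted p of 0.0250. With library size alone as the scale, DVL1 was lower with adriamycin than control by a log2 fold change of -0.40 (edgeR adjusted p = 0.000228), and its difference between the drugs was 0.15 (edgeR adjusted p = 0.132). DVL1 shares 2.52% of its exon bases with TAS1R3, a taste receptor gene on the opposite strand, and the microRNA gene MIR6808 on its own strand, which had 2 to 14 and 0 counts per library.

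PRKCZ (ENSG00000067606, chr1:2050411-2185395, plus strand) followed DVL1 at a lower level. Its normalized counts were 495 and 483 in control (489 ± 8.54, SD, n = 2), 290.4 and 317 with etoposide (304 ± 18.6), and 459.6 and 369 with adriamycin (414 ± 64.2). The etoposide libraries were the lowest, and the adriamycin libraries lay between the other groups without overlapping either. PRKCZ fell by 0.69 on the log2 scale with etoposide (SE 0.12, edgeR adjusted p = 6.28e-07). With adriamycin the difference from control was -0.23 (95% interval -0.47 to 0.0037, edgeR adjusted p = 0.0970). It was 0.46 higher with adriamycin than with etoposide (SE 0.12, edgeR adjusted p = 0.000673).

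The PRKCZ decrease with etoposide had edgeR adjusted p = 0.0770 without etoposide replicate 1 and 0.0101 without etoposide replicate 2. Its difference between the drugs had edgeR adjusted p = 0.102 and 0.0194 without these libraries, and 0.0905 without adriamycin replicate 1. With library size alone, that difference was 0.048 (edgeR adjusted p = 0.760), and PRKCZ was lower with adriamycin than control by -0.45 (edgeR adjusted p = 0.00119). PRKCZ shares 12.2% of its exon bases with 3 genes on the opposite strand, FAAP20, PRKCZ-AS1 and ENSG00000271806. The strand setting of the counting is not given in the sources used here, so reads from these stretches cannot be assigned. FAAP20, which encodes a subunit of the Fanconi anaemia core complex, had 1189 to 2098 counts per library, against 264 to 611 for PRKCZ.

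GNB1 (ENSG00000078369, chr1:1785285-1892292, minus strand) separated the drugs most strongly. Its raw counts were 5925 and 4529 in control, 5240 and 3199 with etoposide, and 6251 and 4952 with adriamycin, the highest raw counts among the members in every library. The normalized counts were 4801 and 5196 in control (4998 ± 279, SD, n = 2), 3547 and 3366 with etoposide (3456 ± 128), and 6761 and 6918 with adriamycin (6839 ± 111). The 3 groups were fully separated, with etoposide below and adriamycin above control. GNB1 fell by 0.53 on the log2 scale with etoposide (SE 0.087, edgeR adjusted p = 2.05e-07). It rose by 0.45 with adriamycin (SE 0.087, edgeR adjusted p = 5.80e-06), a level 1.37 times that of control. Between the drugs the difference was 0.98 (SE 0.088, edgeR adjusted p = 1.25e-18), or 1.98-fold.

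That difference between the drugs passed the test under all 17 alternative settings, with values from 0.57 to 1.06. The rise with adriamycin was 0.24 with library size alone (edgeR adjusted p = 0.0165) and passed under the other 16 settings. The decrease with etoposide had an edgeR adjusted p of 0.0140 without etoposide replicate 1. GNB1 shares 3.27% of its exon bases with GNB1-DT, a divergent transcript with 2 to 11 counts per library.

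**Figure D2:**
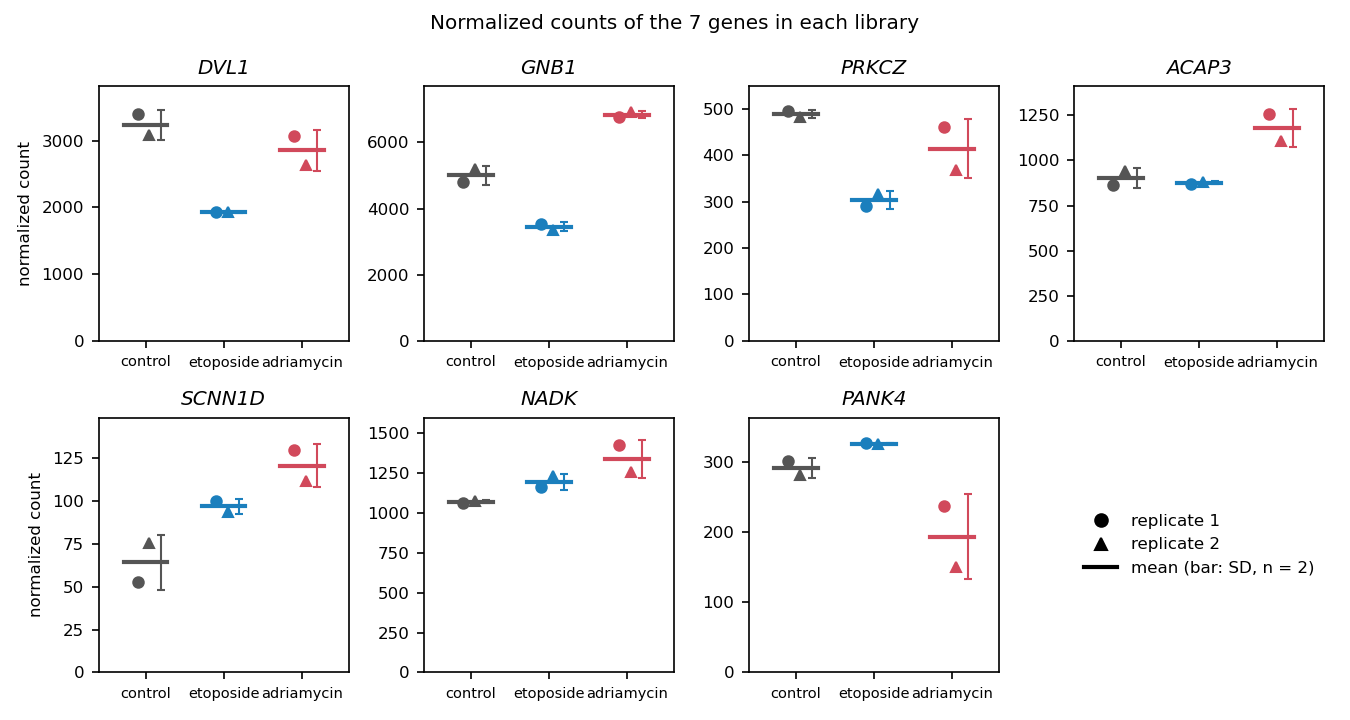
Normalized counts of each member in the 6 libraries, with a point for each library (circle replicate 1, triangle replicate 2), a horizontal line for the group mean and an error bar for the SD (n = 2). GNB1 is lowest with etoposide and highest with adriamycin, DVL1 and PRKCZ are lowest with etoposide, and PANK4 is lowest with adriamycin with its libraries at 237 and 151.

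ACAP3 (ENSG00000131584, chr1:1292390-1309609, minus strand) overlapped control with etoposide and was higher with adriamycin. Its normalized counts were 864 and 942 in control (903 ± 54.7, SD, n = 2), 870.4 and 883 with etoposide (877 ± 8.68), and 1256 and 1108 with adriamycin (1182 ± 105). The etoposide libraries lay between the control libraries, the only overlap of groups among the members. The groups of the other 6 members did not overlap in this comparison, where 70.2% of the tested genes were separated, and all 7 were separated in the other comparisons, where 75.5% and 77.7% were. The etoposide difference was -0.041 (95% interval -0.23 to 0.15, edgeR adjusted p = 0.803). ACAP3 rose by 0.39 with adriamycin against control (SE 0.097, edgeR adjusted p = 0.000410) and was 0.43 higher with adriamycin than with etoposide (SE 0.097, edgeR adjusted p = 5.48e-05).

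The rise against control had edgeR adjusted p values from 0.0101 to 0.0342 without control replicate 1, without either etoposide library or without adriamycin replicate 1. Fitted on only the 4 libraries compared, it had an edgeR adjusted p of 0.0148. With library size alone it was 0.18 (edgeR adjusted p = 0.100), and the difference between the drugs was 0.021 (edgeR adjusted p = 0.879). That difference had edgeR adjusted p = 0.0334 without etoposide replicate 1 and 0.0164 without adriamycin replicate 1. ACAP3 shares 1.93% of its exon bases with PUSL1, a pseudouridine synthase gene on the opposite strand.

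SCNN1D (ENSG00000162572, chr1:1280436-1292029, plus strand) lies 360 bases from ACAP3 on the opposite strand and had the fewest counts, from 65 to 148 per library. The normalized counts were 52.7 and 75.7 in control (64.2 ± 16.3, SD, n = 2), 100.2 and 93.6 with etoposide (96.9 ± 4.62), and 129.8 and 112 with adriamycin (121 ± 12.7). On this scale both treated groups lay above control, and adriamycin lay above etoposide, with the widest relative spread in control. SCNN1D counts per ACAP3 count were 0.0609 and 0.0804 in control, 0.115 and 0.106 with etoposide, and 0.103 and 0.101 with adriamycin. By this ratio, whose denominator rose with adriamycin, etoposide lay above adriamycin. SCNN1D rose by 0.94 with adriamycin (SE 0.26, edgeR adjusted p = 0.00121), which is 1.92-fold. With etoposide the difference was 0.62 (95% interval 0.12 to 1.12, edgeR adjusted p = 0.0458), which did not pass the threshold of 0.01. Between the drugs it was 0.32 (95% interval -0.15 to 0.79, edgeR adjusted p = 0.278).

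Leaving out control replicate 1 gave a rise with adriamycin of 0.72 (edgeR adjusted p = 0.0485). The adjusted p from edgeR was 0.0270 and 0.0134 without etoposide replicates 1 and 2, and 0.0325 without adriamycin replicate 1, and 0.0267 with only the control and adriamycin libraries in the fit. With library size alone the difference from control was 0.82 with etoposide (edgeR adjusted p = 0.00546) and 0.73 with adriamycin (edgeR adjusted p = 0.0139).

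NADK (ENSG00000008130, chr1:1751232-1780457, minus strand) lies 4827 bases from GNB1 on the same strand. Its normalized counts were 1063 and 1076 in control (1069.5 ± 9.22, SD, n = 2), 1162 and 1231 with etoposide (1196 ± 49.1), and 1425 and 1254 with adriamycin (1339.9 ± 121). Control was lowest and adriamycin highest, with little room between the drugs. NADK rose by 0.33 with adriamycin (SE 0.095, edgeR adjusted p = 0.00226), or 1.25-fold. The difference with etoposide was 0.16 (95% interval -0.025 to 0.35, edgeR adjusted p = 0.175). Between the drugs it was 0.17 (95% interval -0.019 to 0.35, edgeR adjusted p = 0.135). The neighbours NADK and GNB1 parted with etoposide. GNB1 counts per NADK count were 4.52 and 4.83 in control, 3.05 and 2.73 with etoposide, and 4.74 and 5.51 with adriamycin. The control and adriamycin ranges of this ratio overlapped.

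The rise of NADK had edgeR adjusted p values from 0.0134 to 0.0519 without either control library, without either etoposide library or without adriamycin replicate 1, and 0.0196 without both etoposide libraries. With library size alone it was 0.11 (edgeR adjusted p = 0.290), and NADK was then higher with etoposide than control by 0.36 (edgeR adjusted p = 0.00130).

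PANK4 (ENSG00000157881, chr1:2508537-2526597, minus strand) was the member that fell with adriamycin. Its raw counts were 372 and 245 in control, 483 and 310 with etoposide, and 219 and 108 with adriamycin. The normalized counts were 301 and 281 in control (291 ± 14.4, SD, n = 2), 327 and 326 with etoposide (327 ± 0.544), and 237 and 151 with adriamycin (194 ± 60.8). Both adriamycin libraries were below all others, but they lay far apart. PANK4 fell by 0.57 on the log2 scale with adriamycin (SE 0.15, edgeR adjusted p = 0.000859). With etoposide the difference from control was 0.16 (95% interval -0.11 to 0.43, edgeR adjusted p = 0.363). Adriamycin lay below etoposide by a log2 fold change of -0.73 (SE 0.15, edgeR adjusted p = 7.22e-06).

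The adriamycin libraries gave decreases of different size. Without adriamycin replicate 2 the difference was -0.28 against control (edgeR adjusted p = 0.153) and -0.45 against etoposide (edgeR adjusted p = 0.0229), and without adriamycin replicate 1 the differences were -0.89 and -1.07. Without control replicates 1 and 2 the edgeR adjusted p against control was 0.0379 and 0.0199, and without etoposide replicates 1 and 2 it was 0.112 and 0.0603. Against etoposide, the last 2 of these fits gave edgeR adjusted p = 0.0872 and 0.0390. With neither etoposide library in the fit, the edgeR adjusted p against control was 0.0980. The DESeq2 Wald test gave -0.49 against control with an adjusted p of 0.0474.

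Ratios between members within a library need no scaling, and the pairs given here were chosen after the values were seen, as a description. There were 3.93 and 3.27 DVL1 counts per ACAP3 count in the control libraries, 2.23 and 2.18 with etoposide, and 2.45 and 2.38 with adriamycin. By this ratio both drugs were below control, with etoposide below adriamycin. For GNB1 per DVL1 the ratio was 1.41 and 1.69 in control, 1.83 and 1.75 with etoposide, and 2.20 and 2.62 with adriamycin. Both drugs lay above control in this ratio, and adriamycin lay above etoposide.

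The enzymes gave another contrast. PANK4 counts per NADK count were 0.284 and 0.261 in control and 0.281 and 0.265 with etoposide, against 0.166 and 0.120 with adriamycin. The control and etoposide ranges overlapped, and both adriamycin libraries lay below them. For PANK4 per PRKCZ the ratio was 0.609 and 0.582 in control, 1.13 and 1.03 with etoposide, and 0.515 and 0.409 with adriamycin, so etoposide stood above the other groups.

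**Figure D3:**
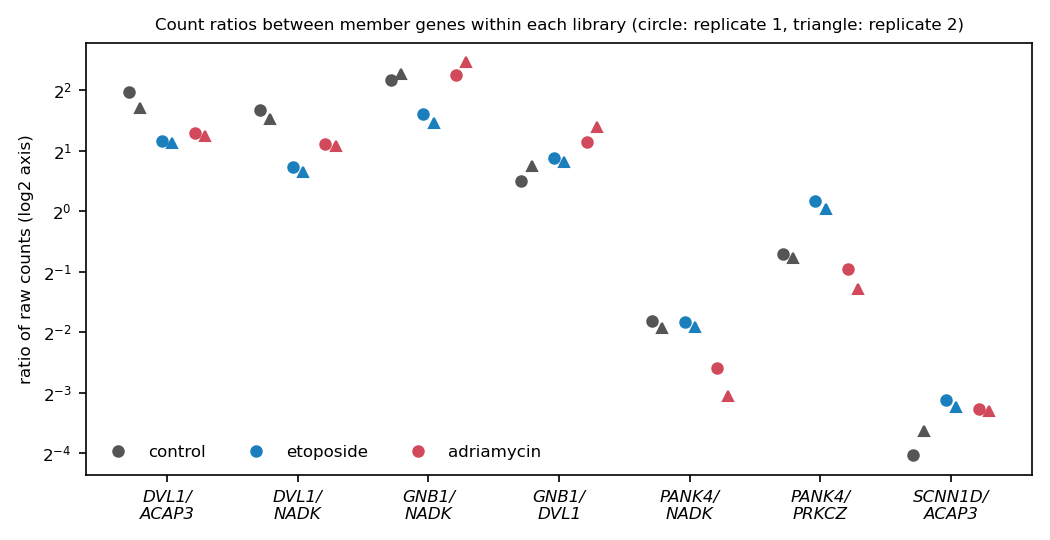
Ratios of raw counts between members within each library, on a log2 axis, with a point for each library (circle replicate 1, triangle replicate 2) coloured by group. DVL1 per ACAP3 is highest in control at 3.93 and 3.27, and PANK4 per NADK has its lowest values with adriamycin at 0.166 and 0.120.

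Per kb of exon, DVL1 had the highest level in control, at 834 normalized counts per kb, followed by GNB1 at 553, NADK at 192, ACAP3 at 104, PRKCZ at 63.5, PANK4 at 57.4 and SCNN1D at 15.9. No neighbours in this order overlapped in their libraries. The order depends on the length used, which joins all annotated exons, 3.882 kb for DVL1 and 9.03 kb for GNB1. By raw counts GNB1 was the highest member in every library. With etoposide, DVL1 at 497 and GNB1 at 383 per kb still led, and PANK4 at 64.4 stood above PRKCZ at 39.4. With adriamycin, GNB1 at 757 and DVL1 at 735 per kb overlapped, as did PANK4 at 38.2 and SCNN1D at 30.0, so neither of these pairs can be ordered.

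Likeness was measured as the root mean square difference between centred log2 profiles over the 6 libraries, as a description across libraries that share depth and scaling. DVL1 and PRKCZ were each other's nearest gene, at 0.074 on the log2 scale, where the median gene lay 0.49 from DVL1, and KLHL17 was the next for both, at 0.0997 and 0.105. GNB1 was nearest to AGRN at 0.12 and ATAD3B at 0.18. NADK was nearest to CDK11B at 0.081 and AURKAIP1 at 0.10, and ACAP3 to MRPL20 at 0.058 and FAAP20 at 0.083. The nearest genes of SCNN1D, ISG15 at 0.18 and WASH7P at 0.20, and of PANK4, MORN1 at 0.18 and LINC01128 at 0.21, lay farther away.

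The relatives of the members could be read in the etoposide libraries alone, where levels per length were compared without a control. By TPM, DVL1 was the most abundant Dishevelled gene, at 117 ± 1.43 TPM (SD, n = 2), above DVL3 at 92.8 ± 8.73 and DVL2 at 30.7 ± 2.58. Raw counts were higher for DVL3, at 3404 and 2530 against 2862 and 1830 for DVL1, with exon lengths of 6.302 and 3.882 kb. DVL1 held 50.6% and 46.9% of the summed Dishevelled TPM in the 2 libraries. All 25 genes of a Wnt pathway list had at least 10 counts in both libraries, among them the receptor FZD6 at 102 TPM and CTNNB1, the gene for beta-catenin, at 88.2 TPM. The lowest of them was TCF7 at 0.44 TPM. Of the 60357 identifiers matched to an exon length, 17148 had at least 10 counts in both libraries.

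GNB1 was second among the beta subunits. Its level was 90.2 ± 4.06 TPM, below GNB2 at 364 ± 0.386 TPM and above GNB4 at 35.4 ± 3.29 TPM. Raw counts of the first 2 lay closer, at 5240 and 3199 for GNB1 and 6107 and 3979 for GNB2. Their exon lengths were 9.03 and 2.692 kb. These lengths join all annotated exons, whichever were in use, so the TPM order of genes depends on them. Of 15 beta and gamma subunit genes, 13 had at least 10 counts in both libraries. They ran from GNG2 at 1.54 TPM up to GNB2 and included the gamma subunit GNG12 at 129 TPM. PRKCZ, at 9.30 ± 0.496 TPM, was below the other atypical kinase, PRKCI, at 46.1 ± 1.40 TPM, and held 16.6% and 17.0% of their sum. All 9 protein kinase C genes and all 8 polarity partners had at least 10 counts in both libraries, some at low levels. The kinases ran from PRKCB at 0.31 TPM up to PRKCI, and the partners from LLGL2 at 0.54 TPM up to LLGL1 at 97.4 TPM.

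NADK, at 50.6 ± 1.68 TPM, exceeded the mitochondrial NADK2 at 19.0 ± 0.245 TPM. In the list for NAD and NADP synthesis, 11 of 12 genes reached at least 10 counts in both libraries, from NMNAT3 at 0.92 TPM up to QPRT at 83.3 TPM. PANK4, at 15.2 ± 0.145 TPM, was below PANK3 at 57.7 ± 2.69 TPM and held 17.7% and 17.0% of the family's level. All 7 genes of a list for coenzyme A synthesis, which includes PANK4 as a family member, had at least 10 counts in both libraries. ACAP3 was the leading ACAP gene at 23.7 ± 0.0473 TPM, above ACAP2 at 17.3 TPM, and its substrate ARF6 stood at 124 TPM. SCNN1D, at 5.68 ± 0.316 TPM, was the main channel subunit by RNA, above SCNN1A at 1.22 ± 0.0572 TPM. SCNN1B had 6 and 5 counts and SCNN1G had 0 in both libraries. Of each of these lists, at most the member itself lay among the 220 shared genes, so no relative was tested between groups.

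**Figure D4:**
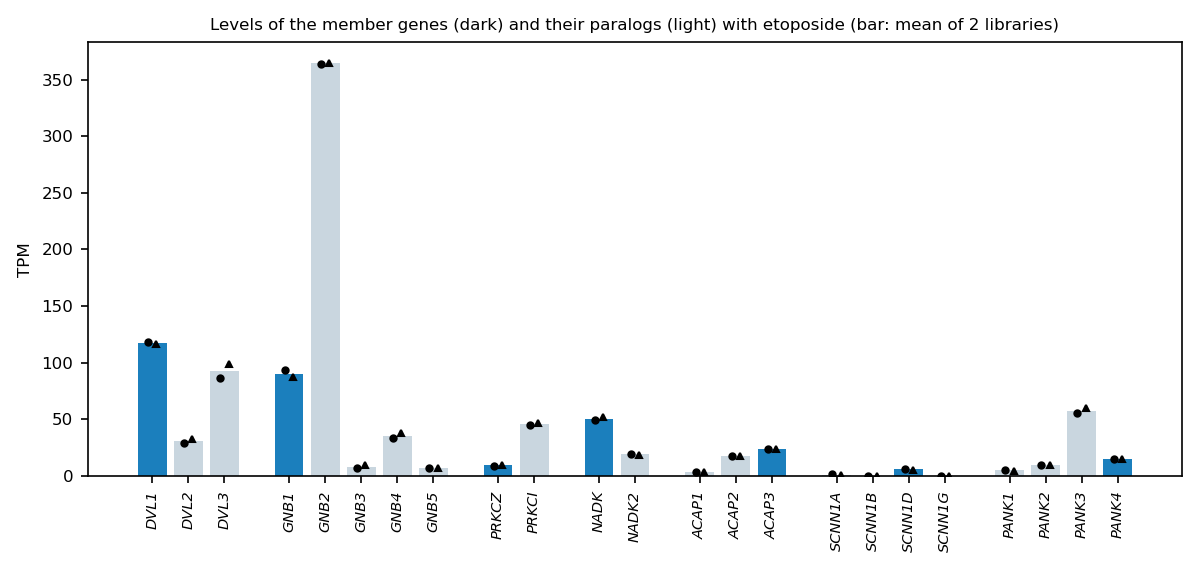
TPM of each member and its paralogs in the 2 etoposide libraries, with a bar from 0 for the mean (dark for members, light for paralogs) and a point for each library. By TPM, DVL1, NADK, ACAP3 and SCNN1D lead their families, while GNB1 lies below GNB2, PRKCZ below PRKCI and PANK4 below PANK3. DVL3 had more raw counts than DVL1.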

How the data were processed

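RNA-Seq of U2OS cells gave 6 libraries in 3 groups, assigned and numbered from the sample labels. The authors aligned reads to GRCh38 with HISAT2 2.1.0, counted them per Ensembl gene with featureCounts of Subread 2.0.0 and deposited raw counts, whole numbers with no normalization, and used DESeq2 1.30.1, as named in the submitters' processing notes and the study's methods. The control and adriamycin libraries were read as far as their last complete line, at 220 to 292 genes, and their other genes were not analysed here. The sums over 220 shared genes are not library depths. In the etoposide libraries these genes held 0.433% and 0.430% of all counts.

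Differential expression was fitted to all 6 libraries at once by the quasi-likelihood method of edgeR 4.0.16 under R 4.3.3 (limma 3.58.1). TMM scaling used the shared genes, low counts were removed by the default filter, replicate numbers did not enter the fit, and p-values of 94 genes were adjusted by Benjamini-Hochberg. Genes with an adjusted p under 0.01 are said to rise or fall. The biological coefficient of variation was 7.51%. DESeq2 1.42.0 was an alternative, with other scalings, filters and left-out libraries. The SE is the log2 fold change divided by the root of F. TPM used union exon lengths of GENCODE 44, which matched 60357 of 67140 identifiers. Likeness used a pseudocount of 0.5. Python 3.11.15 was used for tables (pandas 2.3.3, numpy 2.4.6) and figures (matplotlib 3.10.9).

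The members and lists were chosen with earlier results of these data known. All 7 members are named, with their 2 nearest genes by likeness, genes sharing exon bases, and relatives from the lists. Replicates differed by more than sampling noise (chi-square per degree of freedom 3.53 to 5.81 over 75 genes), so none was counted as a duplicate.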

Additional observations from a re-analysis of the deposited data

How the results depend on the processing

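Of 364 alternative values for the 21 fold changes, 295 kept their direction and side of the threshold, 49 lost the call, 11 gained one and 9 reversed, and the cause was not tested. In 21 of the 364, only the threshold was loosened to an adjusted p under 0.05, so these could neither reverse nor lose a call. Some scalings moved the median of all genes by over 0.1. It was 0.22, -0.29 and -0.48 (etoposide against control, adriamycin against control, adriamycin against etoposide) with library size alone, 0.25, 0.12 and -0.10 with upper-quartile scaling, and 0.18, -0.20 and -0.35 with the sum without AGRN, which was chosen after seeing the data. The 220 genes and 2 libraries per group limit the scale and the spread.

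The counts below are of members only, without the share of all tested genes called under the same setting. They do not tell a change in the members from a shift over all genes. Members higher with etoposide than control numbered 0, and 1 at an adjusted p under 0.05, and 2 under each of 3 scalings (the sum without AGRN, upper-quartile and library size alone). Members lower with etoposide numbered 0 to 3 with 1 library left out. With adriamycin against control, 4 members were higher, but 0 with library size alone, 2 with the sum without AGRN, 1 (GNB1) when only the 4 libraries compared were fitted, and 1 to 4 with 1 library left out. The 1 lower member became 0 with DESeq2 size factors, upper-quartile scaling, the DESeq2 Wald test or only the 4 libraries, 3 with library size alone or the sum without AGRN, and 0 to 1 with 1 library left out. Between the drugs, 4 higher members became 1 with library size alone, 2 with the sum without AGRN and 1 to 4 with 1 library left out, and the lower count was 0 to 1.

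ACAP3 with etoposide reversed to 0.15 with library size alone, 0.18 by upper-quartile scaling, 0.11 with the sum without AGRN, 0.0045 with at least 10 counts and 0.0068 without control replicate 2. DVL1 with adriamycin reversed to 0.012 with upper-quartile scaling. Between the drugs, NADK reversed to -0.24 with library size alone and -0.11 with the sum without AGRN, and SCNN1D to -0.095 with library size alone.

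A replicate block changed no call, with 3 members lower with etoposide, and 4 higher and 1 lower in both adriamycin comparisons (DVL1 with etoposide at -0.74). Pairing by number was not seen, since same-numbered libraries had deviations correlated at -0.070, 0.036 and -0.010 over 75 genes.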
